A study of Homo sapiens with 21 samples.

Results

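FGFR1 occupied 322 stretches of the CAMA1 genome at the ends of protein-coding genes that held no reproducible signal of RNA polymerase II phosphorylated on serine 5 of its tail (Pol II S5P). They were chosen from 4736 reproducible FGFR1 regions, each a merged stretch in which a peak of both untransfected FGFR1 lists overlapped by at least 1 bp on chromosomes 1 to 22 and X. A protein-coding gene began or ended within 1 kb of 3441 of them, and 3119 of the 3441 overlapped a Pol II S5P region defined in the same way. The other 322, or 9.36%, are described here, and the 3119 serve as their comparison. The choice used the FGFR1 and Pol II S5P lists of untransfected cells, so values from those lists are given as descriptions without a test.

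CAMA1 is a breast cancer cell line that expresses the oestrogen receptor and that the labels give as FGFR1-amplified, used below passage 10. Chromatin immunoprecipitation with sequencing was done for FGFR1, H3K4me3, H3K27ac, Pol II S5P and FOXA1 in untransfected cells, and for FGFR1 in transfected cells, harvested 72 h after they received either a control siRNA without a target (siNT) or one directed at FOXA1 (siFOXA1). All cells had spent 48 h without estradiol. There were 7 groups of 2 libraries, with 1 peak list per library, and the 7 inputs were left aside. Whether the libraries of a pair represent separate cultures is not in the labels, so spreads between them may be technical. All groups are of this single line, and no level of FOXA1 after siFOXA1 was analysed here. Peaks numbered 5341 and 13135 for untransfected FGFR1, 6007 and 6594 after siNT, 4332 and 5056 after siFOXA1, and 18713 and 12267 for Pol II S5P. The background of a list, in fragments per position, is the depth measure that the lists carry. It was 3.40 and 3.50 for untransfected FGFR1, 2.19 in both siNT lists, and 2.11 and 2.20 for siFOXA1. Reproducible H3K4me3 lay at an end of 7 of 8 luminal marker genes (all but ESR1), 5 of 10 basal or mesenchymal markers and 3 of 10 blood or endothelial markers.

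FGFR1 is a receptor tyrosine kinase that binds fibroblast growth factors at the cell surface, and full-length FGFR1 has also been found in the nucleus and on chromatin. Serine 5 of the Pol II tail is phosphorylated when the polymerase initiates, so its signal piles up just downstream of active start sites. H3K4me3 marks promoters, H3K27ac marks active promoters and enhancers, and FOXA1 is a forkhead protein that can bind closed chromatin and prepares sites for the oestrogen receptor in luminal breast cells. A promoter can carry both histone marks while its polymerase signal is weak.

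Promoter sequences are shown for 7 regions, chosen from members that overlapped a promoter of known sequence. The first 5 were the strongest of these by FGFR1, and all 5 also held FGFR1 in both siRNA conditions. The other 2 (MED13L and UNC5A) were the strongest whose FGFR1 peak was shared by the siNT lists and missing from both siFOXA1 lists. Each sequence is the 250 bases upstream of the start site in gene orientation. The sequences were taken from RefSeq on GRCh38.p14, the same primary assembly as the hg38 build of the lists. They are KMT2A at chr11:118436242-118436491 (plus strand), RAPGEF1 at chr9:131740077-131740326 (minus), LSM11 at chr5:157743462-157743711 (plus), TRABD at chr22:50185663-50185912 (plus), ELOVL2 at chr6:11044306-11044555 (minus), MED13L at chr12:116277694-116277943 (minus) and UNC5A at chr5:176810309-176810558 (plus). Capitals mark matches to any of the motifs searched on both strands. They are the SP and KLF box GGGCGG in all 7 and, in MED13L alone, also the E-box CACGTG and the CCAAT box.
KMT2A: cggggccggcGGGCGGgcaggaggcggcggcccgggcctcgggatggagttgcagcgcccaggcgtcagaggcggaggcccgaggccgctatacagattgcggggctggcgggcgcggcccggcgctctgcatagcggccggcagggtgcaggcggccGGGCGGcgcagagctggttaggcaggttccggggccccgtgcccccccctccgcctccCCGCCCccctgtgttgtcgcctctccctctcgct
RAPGEF1: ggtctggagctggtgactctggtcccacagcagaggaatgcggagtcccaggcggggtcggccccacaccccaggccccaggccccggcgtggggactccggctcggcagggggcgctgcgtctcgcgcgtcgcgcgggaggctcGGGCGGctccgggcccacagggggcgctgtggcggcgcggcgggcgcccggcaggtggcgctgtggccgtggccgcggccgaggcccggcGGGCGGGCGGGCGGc
LSM11: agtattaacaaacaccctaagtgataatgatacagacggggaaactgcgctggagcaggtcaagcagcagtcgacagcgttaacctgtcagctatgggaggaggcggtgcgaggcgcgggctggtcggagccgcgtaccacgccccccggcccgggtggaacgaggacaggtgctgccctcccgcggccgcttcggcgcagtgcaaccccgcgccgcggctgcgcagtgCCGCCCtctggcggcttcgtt
TRABD: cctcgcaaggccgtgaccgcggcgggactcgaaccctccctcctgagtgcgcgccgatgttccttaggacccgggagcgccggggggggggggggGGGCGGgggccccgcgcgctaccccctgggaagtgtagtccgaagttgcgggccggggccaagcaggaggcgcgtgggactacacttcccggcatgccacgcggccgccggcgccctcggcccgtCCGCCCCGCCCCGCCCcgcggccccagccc
ELOVL2: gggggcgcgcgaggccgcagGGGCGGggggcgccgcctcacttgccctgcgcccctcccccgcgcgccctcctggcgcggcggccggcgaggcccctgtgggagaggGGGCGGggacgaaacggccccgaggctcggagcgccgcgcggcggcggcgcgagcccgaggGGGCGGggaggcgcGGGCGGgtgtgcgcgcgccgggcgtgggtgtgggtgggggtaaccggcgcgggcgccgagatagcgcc
MED13L: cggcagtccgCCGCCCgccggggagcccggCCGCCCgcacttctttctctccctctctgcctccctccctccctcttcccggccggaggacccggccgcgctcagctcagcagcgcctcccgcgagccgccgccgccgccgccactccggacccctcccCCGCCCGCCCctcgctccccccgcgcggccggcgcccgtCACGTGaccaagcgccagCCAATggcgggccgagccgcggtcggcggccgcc
UNC5A: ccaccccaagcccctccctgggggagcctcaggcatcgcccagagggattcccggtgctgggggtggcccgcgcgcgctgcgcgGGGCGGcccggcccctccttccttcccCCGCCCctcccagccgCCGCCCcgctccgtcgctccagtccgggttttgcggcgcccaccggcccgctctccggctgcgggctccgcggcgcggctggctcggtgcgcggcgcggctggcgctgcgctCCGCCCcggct

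The 7 promoters had a GC content from 66.4% in LSM11 to 84.8% in ELOVL2, and held 1 match to GGGCGG in LSM11, 3 in KMT2A and 4 in each of the others. Strand and sequence were known for 196 promoters that an FGFR1 region without Pol II S5P overlapped. Their median GC content was 73.2%, with quartiles of 65.6% and 80.0%, against 69.6% for 2558 promoters at FGFR1 regions with Pol II S5P and 62.4% for 15812 protein-coding promoters. The median ratio of observed to expected CpG was 0.843, 0.882 and 0.737 in the same order, so member promoters were CpG-rich like those with Pol II S5P. GGGCGG was in 87.8% of member promoters (172 of 196), in 78.4% of those with Pol II S5P and in 56.0% of all. The ETS core CCGGAAG was in 11.7% of member promoters, in 20.4% of those with Pol II S5P and in 11.8% of all. The TATA box TATAAA was in 2.55%, 4.69% and 9.25%. The forkhead core TGTTTAC was in 6 of 196 member promoters (3.06%), against 1.17% and 2.26%. CCAAT was in 34.2%, 34.2% and 34.4%, and CACGTG in 11.2%, 11.1% and 7.83%. Each search covered both strands of the 250 bases, and none of these shares was tested. Matches to GGGCGG and to the other motifs may overlap.

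The 322 regions touched the ends of 362 genes, 9.09% of the 3981 genes with an FGFR1 region at an end. Pol II S5P was absent from the FGFR1 region and not always from the gene. Of the 362 genes, 102 had a reproducible Pol II S5P region inside the gene or within 1 kb of it, 68 had it within 1 kb of an end, and 30 also had a separate FGFR1 region with Pol II S5P. The median distance from a member to the nearest reproducible Pol II S5P region was 45.0 kb. It was within 200 bp for 15 members, within 1 kb for 36, over 10 kb for 244 and over 100 kb for 98. At ends of several genes at once lay 40 of the 322 members, against 717 of the 3119 regions with Pol II S5P. Member regions were narrower, and these counts were neither adjusted for width nor tested.

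Weak Pol II S5P was common among the members. The first and longer Pol II S5P list had a peak in 175 regions (54.3%) where the second had none, the second alone had one in 5, and in 2 regions peaks of both lists did not overlap each other. The other 140 (43.5%, Wilson 95% interval 38.2% to 48.9%) held no Pol II S5P peak of either list. Where the first list had a peak, the authors' fold enrichment over background had a median of 5.59 in 177 members, with a maximum of 10.0, against 11.8 in the regions with reproducible Pol II S5P. The number of members therefore rested on the second Pol II S5P library, and with the first list alone it was 145. It also rested on the first FGFR1 library: with the second FGFR1 list alone, 1684 gene-end regions lacked Pol II S5P. Just inside the limit lay the regions at ZNF616, SP1 and SHF, 9, 19 and 23 bp from the nearest Pol II S5P region. Just outside lay those at MEX3B, EPHB3 and CCDC92 with ZNF664, which overlapped one by 50, 52 and 64 bp. At the limit of the window, SMIM45, LOC124900275 and KCNK9 had their end 997, 984 and 957 bp from the region.

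FGFR1 signal at the members covered much of the range seen at gene ends with Pol II S5P. The authors' fold had a median of 5.23 in the first untransfected list (range 3.41 to 30.7) and of 7.55 in the second (range 3.77 to 37.5), against 5.46 and 7.99 with Pol II S5P. The mean within-list percentile of the fold had a median of 63.5 against 66.5. Of all 3441 gene-end regions ranked by that percentile, members made up 2 of the strongest 10, 6 of the strongest 50, 9 of the strongest 100 and 49 of the strongest 500. With the regions cut into 10 groups by FGFR1 strength, the share of members lay between 5.81% in the third and 11.01% in the weakest group. Member regions were narrower, with a median width of 428.5 bp against 609 bp. Their summit lay farther from the start site, at a median of 140 bp in 247 regions against 85 bp in 2516.

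**Figure D1:**
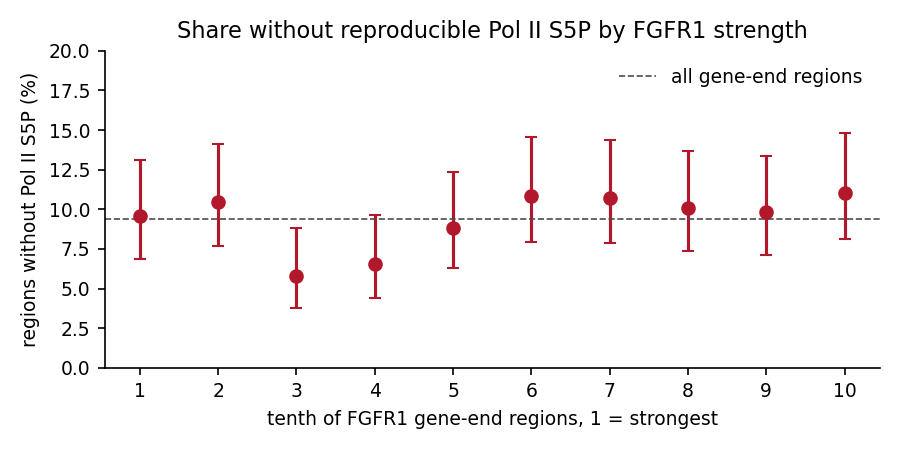
Share of FGFR1 gene-end regions without reproducible Pol II S5P (y axis, %, points with 95% Wilson intervals) in each of 10 groups by FGFR1 strength (x axis, 1 strongest); the dashed line is the 9.36% over all 3441 regions. The shares run from 5.81% in the third group to 11.01% in the weakest. Both axes come from lists that the choice of members used, so the shares were not tested.

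KMT2A, which encodes a histone H3 lysine 4 methyltransferase, had the strongest FGFR1 of all members and the third strongest of all gene ends. Its region, chr11:118436085-118436553, had a fold of 30.7 and 37.5 in the untransfected lists, 16.3 and 20.4 after siNT, and 12.2 and 13.8 after siFOXA1. Pol II S5P was listed there at a fold of 4.49 in the first list and not in the second, while H3K4me3 had folds of 85.8 and 88.8. RAPGEF1, which encodes an exchange factor for the small GTPase RAP1, was next, at chr9:131740031-131740372. FGFR1 had folds of 22.1 and 27.8 there untransfected, 33.6 and 36.7 with siNT, and 19.9 and 20.01 with siFOXA1. No Pol II S5P peak of either list overlapped it, H3K4me3 stood at 99.1 and 101.2, and H3K27ac only at 6.23 and 6.53. A fold is relative to the background of its own list, so the listed values are set side by side across conditions, and their order is a description that does not measure a change in binding.

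The third was RFX7, which encodes a winged-helix transcription factor, with FGFR1 folds of 21.4 and 24.2 untransfected, 39.9 and 37.9 with siNT and 23.2 and 17.8 with siFOXA1. TPBGL had 15.9 and 25.5, then 36.4 and 41.0, then 23.2 and 18.1. LSM11, whose product belongs to the U7 particle that processes histone mRNA ends, had 15.9 and 19.8, then 30.8 and 30.7, then 16.4 and 17.2. In these 3 regions both siNT folds exceeded both untransfected folds, and both siFOXA1 folds lay below both siNT folds. The region shared by CASKIN2 and TSEN54, the latter a subunit of the tRNA splicing endonuclease, had the same order, with 15.5 and 19.1, then 26.99 and 26.94, then 19.0 and 20.6. At TRABD the siNT folds were listed below the untransfected ones, with 15.5 and 20.4, then 10.7 and 11.3, then 9.97 and 6.88. SLC22A23, a solute carrier gene, had 14.6 and 20.4, then 10.4 and 8.15, then 9.004 and 6.25. ELOVL2, which encodes an elongase of long polyunsaturated fatty acids, had 18.7 and 14.4, then 15.7 and 18.8, then 5.15 and 10.0, with no Pol II S5P peak in either list. The RFX7 and TPBGL regions lay 869 and 751 bp from the nearest gene end, and neither remained a member with a window of 500 bp. The region of CASKIN2 and TSEN54 lay 252 bp from a reproducible Pol II S5P region.

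The last of the 12 leading members were FTO with RPGRIP1L, KLHL25 and KISS1R. FTO (an RNA demethylase) and RPGRIP1L (a protein of the ciliary transition zone) share a start region, with FGFR1 folds of 11.6 and 24.4 untransfected, 10.7 and 8.46 with siNT and 7.72 and 7.505 with siFOXA1. KLHL25, an adaptor of a CUL3 ubiquitin ligase, had 12.5 and 17.8, then 9.10 and 8.15, then 6.11 and 8.76. KISS1R, the kisspeptin receptor gene, had 14.1 and 13.8, then 15.1 and 16.3, then 14.5 and 13.4, the narrowest spread of the 12, while its H3K4me3 folds were only 7.65 and 5.96. All 12 leading members had an FGFR1 peak in each of the 4 transfected lists, with 9.10% over all gene-end regions. The 12 were picked for strong untransfected FGFR1, and the regions behind the 9.10% were not. Both siNT folds were above both untransfected folds in 6 of them and below in 5, and in ELOVL2 they overlapped. This order was not counted over all gene-end regions, so the split is not a trait of these members. Both listed siFOXA1 folds were below both siNT folds in 10 of the 12, with 60.1% over all gene-end regions in the 4 transfected lists; in SLC22A23 and KLHL25 the conditions overlapped. A first-list Pol II S5P peak was present in 9 of the 12 and a second-list peak in none, with 177 and 7 among all 322 members. The choice of members used both of these lists, so the counts are not a trait of the 12. Over 10 other ways of drawing the members, RAPGEF1 and ELOVL2 remained members in all 10, KISS1R in 9, and RFX7, TPBGL and the CASKIN2 and TSEN54 region in 7.

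**Figure D2:**
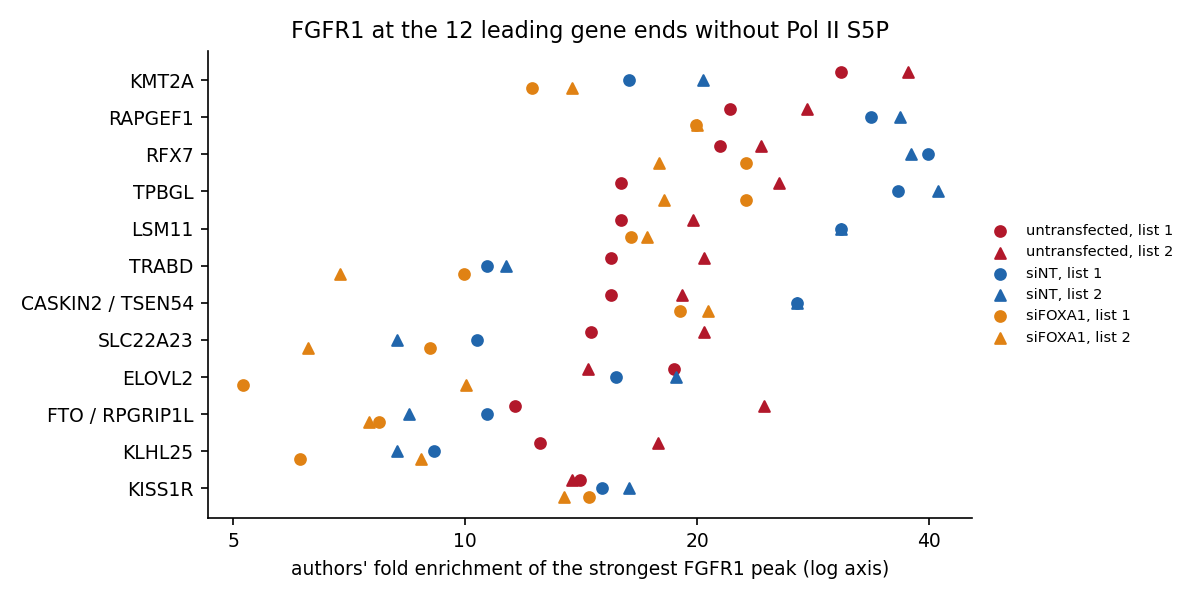
Authors' fold enrichment of FGFR1 (x axis, log scale) at the 12 leading gene ends without Pol II S5P (y axis) in the 6 FGFR1 lists, with circles for the first and triangles for the second library of each condition. The siFOXA1 points lie left of both siNT points in 10 of the 12 regions, and KMT2A has the highest untransfected values, 30.7 and 37.5.

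Nearly all members carried the marks of an active promoter. Reproducible H3K4me3 overlapped 312 of 322 (96.9%), against 3118 of 3119 regions with Pol II S5P, with 99.7% over all gene-end regions. The odds ratio was 0.0100 (95% interval 0.00128 to 0.0784; adjusted p = 1.74e-09, Fisher's exact test, two-sided, Benjamini-Hochberg over 7 features). H3K27ac overlapped 313 of 322 (97.2%) against all 3119, also with 99.7% over all (odds ratio 0.00529 with 0.5 added to each cell, adjusted p = 1.74e-09, Fisher's exact test). These tests treat regions as the unit and describe these lists, not a population of cultures. For H3K4me3 the odds ratio was 0.121 without FGFR1 replicate 1, 0.0383 without FGFR1 replicate 2, 0.0200 without either H3K4me3 library and 0.00410 without Pol II S5P replicate 2. For H3K27ac it was 0.0436, 0.0115 and 0.00218 without FGFR1 replicate 1, FGFR1 replicate 2 and Pol II S5P replicate 2. Where present, the marks were weaker. The mean within-list percentile of the H3K4me3 fold was 82.4 ± 10.4 (SD, n = 312) at members and 91.6 ± 7.03 (SD, n = 3116) with Pol II S5P, a difference of -9.19 points. For H3K27ac it was 92.7 ± 8.21 (SD, n = 311) and 97.9 ± 1.83 (SD, n = 3119), a difference of -5.23 points. Both permutation tests gave p = 1e-05, the smallest that 100000 permutations can give, and 1.5e-05 after adjustment over 3 targets.

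The exceptions were few. Among the 10 members without H3K4me3 were those at WDR46, CTSW with FIBP, EPS8L2, EDDM13 with LOC124900420, PML, CARM1, NSG2, HTR5A and ABHD12, and H3K27ac was missing at EDDM13, PML, CARM1, NSG2 and HTR5A among these and at KISS1R, ADAMTS10, NPAS4 and GSE1. All members that lacked either mark were among the 140 regions with no Pol II S5P peak in either list, and the other 182 members all carried both marks. WDR46, with FGFR1 folds of 12.3 and 14.9 in untransfected cells, had H3K27ac at 58.0 and 14.5 but no H3K4me3 peak. The region at CTSW and FIBP, the latter named for binding fibroblast growth factor inside cells, had FGFR1 at 12.5 and 12.9 and H3K27ac at 5.03 and 4.60. PML, the scaffold of PML nuclear bodies, had FGFR1 at 7.96 and 9.77 and no reproducible region of any other target. EDDM13 with LOC124900420 and the serotonin receptor gene HTR5A were the other members with FGFR1 alone. FGFR1 was in all 4 transfected lists at EDDM13 (folds of 15.1 and 16.9 after siNT, 15.4 and 12.8 after siFOXA1). PML had it in 3 of the 4 lists and HTR5A only in the first siFOXA1 list.

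Members lay mostly at gene starts. Of 251 members whose nearby genes all had a known strand, 236 (94.0%) were within 1 kb of a start, against 2417 of 2463 (98.1%) with Pol II S5P and 97.8% over all (odds ratio 0.299, 95% interval 0.165 to 0.544; adjusted p = 0.000408, Fisher's exact test). Without Pol II S5P replicate 2 the odds ratio was 0.157. The other 15 lay only at the far end of a gene. Among these 15 the leading ones by FGFR1 strength were WDR46, IRF2BP1, SLC34A3, EPS8L2 and BCAN. All had FGFR1 in each of the 4 transfected lists, with 9.10% over all gene-end regions of any strength. IRF2BP1 had FGFR1 folds of 11.4 and 16.0 in untransfected cells and 23.9 and 31.0 after siNT. SLC34A3, a phosphate transporter gene, had 12.1 and 14.4, and 22.6 and 17.2, with H3K27ac at 62.5 and 65.3.

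FOXA1 was less often present at the members. It overlapped 87 of 322 (27.02%) against 1383 of 3119 (44.3%), with 42.7% over all (odds ratio 0.465, 95% interval 0.360 to 0.600; adjusted p = 2.8e-09, Fisher's exact test). Member regions were narrower, and within quintiles of region width the Mantel-Haenszel odds ratio was 0.648 (95% interval 0.497 to 0.847). The single FOXA1 lists gave 28.0% and 30.1% of members, and 50.2% and 51.7% of regions with Pol II S5P. Where FOXA1 was present its within-list percentile averaged 52.4 ± 27.02 (SD, n = 82) and 50.4 ± 26.8 (SD, n = 1351), a difference that did not pass (permutation p = 0.519). H3K4me3 and H3K27ac without FOXA1 was the state of 224 members (69.6%). All 3 were present at 84 (26.1%), against 44.3% with Pol II S5P and 42.6% over all. Of the 12 leading regions, both FOXA1 lists had a peak at TPBGL, LSM11 and the start of FTO and RPGRIP1L, and the second list alone had one at KMT2A and RFX7. Neither list had one at RAPGEF1, TRABD, CASKIN2 with TSEN54, SLC22A23, ELOVL2, KLHL25 or KISS1R.

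**Figure D3:**
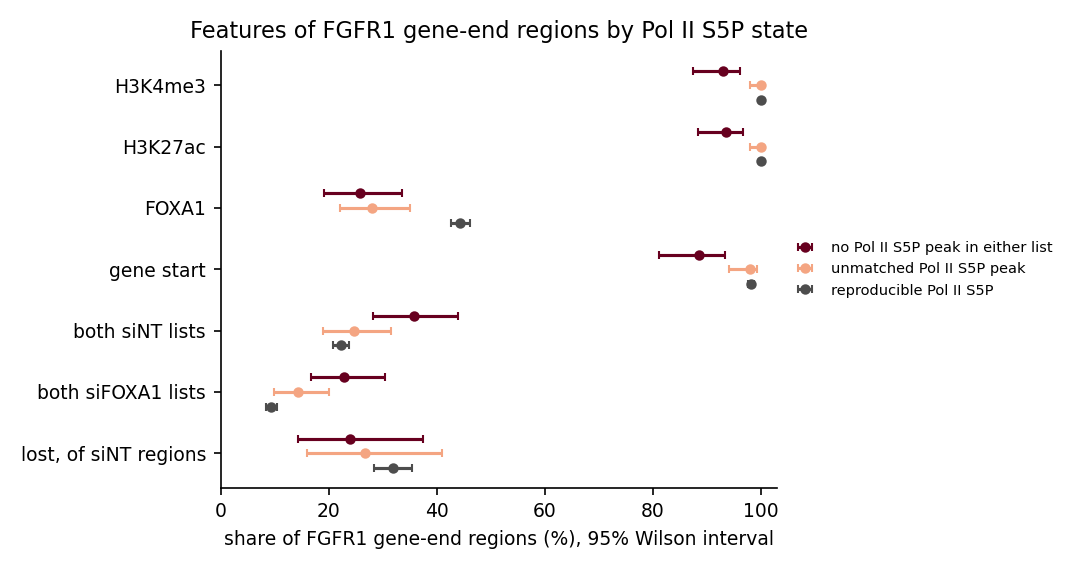
Share of FGFR1 gene-end regions with each feature (x axis, %, points with 95% Wilson intervals) for 140 members with no Pol II S5P peak in either list, 182 with an unmatched Pol II S5P peak and 3119 with reproducible Pol II S5P. FOXA1 is at 25.7%, 28.0% and 44.3%, and presence in both siFOXA1 lists at 22.9%, 14.3% and 9.30%.

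FGFR1 at the members was found again in transfected cells more often than at gene ends with Pol II S5P. Of the 322, 95 (29.5%) had a peak of both siNT lists, against 695 of 3119 (22.3%) and 23.0% over all (odds ratio 1.46, 95% interval 1.13 to 1.88; adjusted p = 0.00498, Fisher's exact test). Both siFOXA1 lists had a peak at 58 (18.0%) against 290 (9.30%), with 10.1% over all (odds ratio 2.14, 95% interval 1.57 to 2.92; adjusted p = 1.04e-05, Fisher's exact test). The direction rested on the first untransfected FGFR1 library. With regions of the second list alone, the odds ratios were 0.662 (adjusted p = 1.91e-05, Fisher's exact test) for siNT and 0.803 (adjusted p = 0.152) for siFOXA1, over 1684 regions without Pol II S5P. With a window of 500 bp the siNT value was 1.32 and its adjusted p 0.0609. Within quintiles of region width, the Mantel-Haenszel odds ratios were 2.54 for siNT and 4.08 for siFOXA1. Members with no Pol II S5P peak in either list had both siNT peaks in 35.7% (50 of 140), and those with an unmatched Pol II S5P peak in 24.7% (45 of 182).

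**Figure D4:**
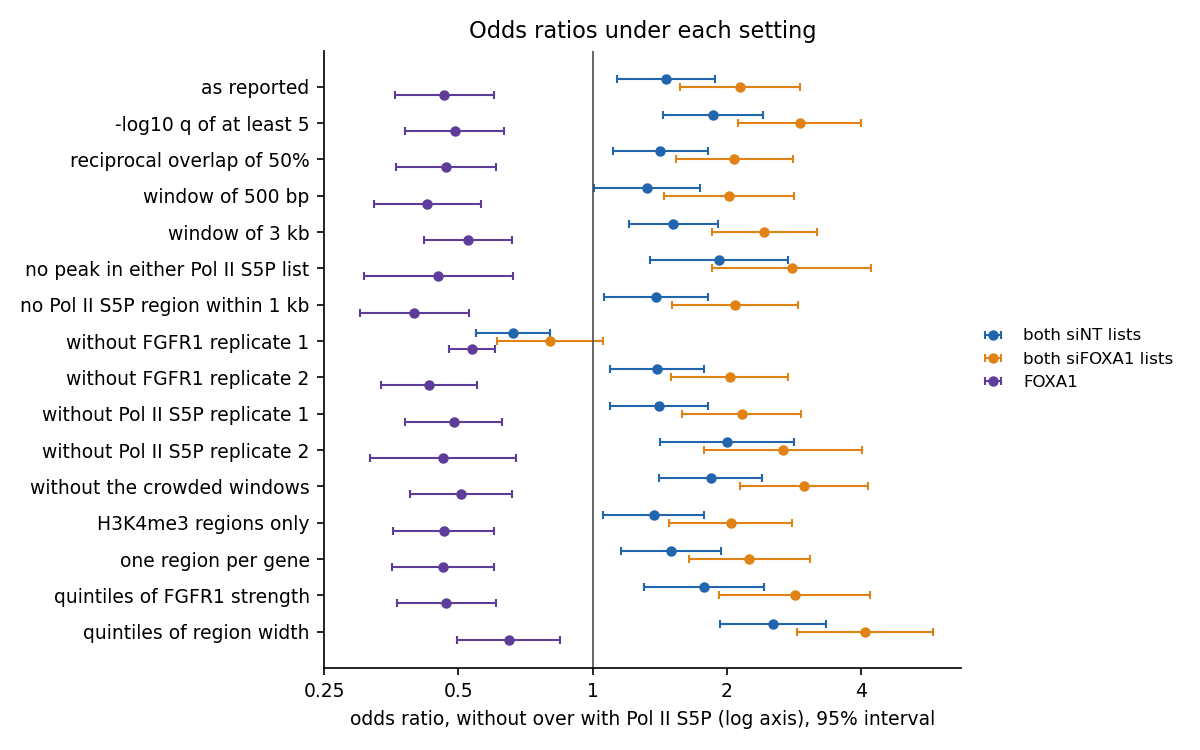
Odds ratios (x axis, log scale, 95% intervals), without over with Pol II S5P, for presence in both siNT lists, presence in both siFOXA1 lists and overlap with FOXA1, as reported and under 15 other settings (y axis). The siRNA odds ratios lie above 1 except without FGFR1 replicate 1, where they are 0.662 and 0.803, and the FOXA1 ones lie below 1 in every setting shown.

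List by list, the siNT libraries had a peak at 119 and 133 of the 322 members (37.0% and 41.3%), and the siFOXA1 libraries at 83 and 71 (25.8% and 22.05%). The siRNA groups did not overlap. The mean was 39.1% ± 3.07 (SD, n = 2) after siNT and 23.9% ± 2.64 (SD, n = 2) after siFOXA1, a ratio of 0.611. An exact permutation test of 2 against 2 libraries gave p = 0.333, two-sided, the smallest this design allows. At gene ends with Pol II S5P the means were 32.8% ± 2.61 and 16.0% ± 2.47 (SD, n = 2 each), a ratio of 0.489. The siFOXA1 lists were also shorter than the siNT lists. With the 4 lists cut to equal length the difference for members was 11.6 percentage points in place of 15.2, and with members drawn from the second untransfected list alone it was 6.53.

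No transfected list had a peak at 155 members (48.1%, with 53.2% over all), and 57, 37 and 17 had one in 1, 2 and 3 lists. A peak in all 4 lists was found at 56 members (17.4%), against 257 regions with Pol II S5P (8.24%) and 9.10% over all. Both listed siFOXA1 folds were below both siNT folds in 41 of these 56 members (73.2%) and in 147 of the 257 (57.2%), with 60.1% over all. The reverse order was found in 0 and 8. The median ratio of the siFOXA1 to the siNT fold was 0.682 at these members and 0.814 with Pol II S5P. These values were not tested, and folds are only set side by side across lists.

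**Figure D5:**
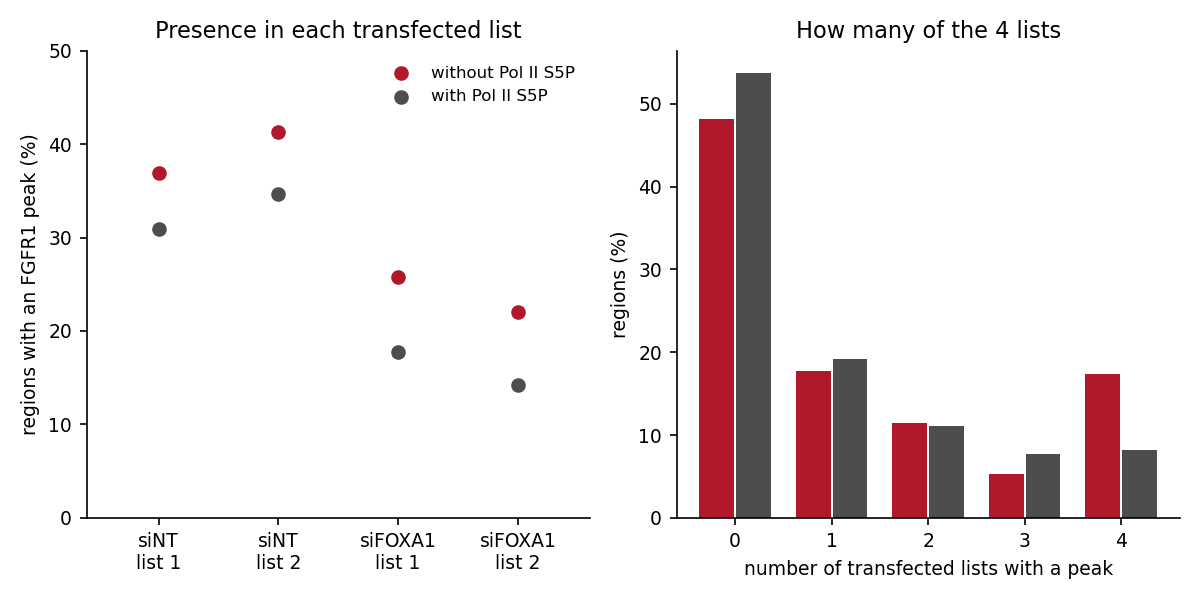
Left, share of FGFR1 gene-end regions with an FGFR1 peak (y axis, %) in each of the 4 transfected lists, without (red) and with (grey) Pol II S5P. Right, share of regions (y axis, %) by the number of transfected lists that held a peak; 17.4% of members and 8.24% of regions with Pol II S5P had a peak in all 4.

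Loss after siFOXA1 means that both siNT lists held a peak and both siFOXA1 lists lacked it. It was seen at 24 of 95 members (25.3%) and at 221 of 695 regions with Pol II S5P (31.8%), with 31.0% over all, and the difference did not pass (odds ratio 0.725, 95% interval 0.444 to 1.18; adjusted p = 0.237, Fisher's exact test). The call depended on single libraries and on how loss was counted. Without siFOXA1 replicate 1 the odds ratio was 0.534 (adjusted p = 0.00604, Fisher's exact test), without siFOXA1 replicate 2 it was 0.563 (adjusted p = 0.0146), and without FGFR1 replicate 1 it was 1.14. With a -log10 q of at least 5 it was 0.398 (adjusted p = 0.000921, Fisher's exact test). No member was gained, meaning in both siFOXA1 lists and in neither siNT list; with 8 gained among the 3119 regions with Pol II S5P, these counts are too few to compare. The leading lost member was KNL1, a kinetochore scaffold gene, with FGFR1 folds of 10.7 and 16.2 in untransfected cells and 4.08 and 4.39 after siNT. It also had FOXA1 at 22.1 and 18.4. The KNL1 region lay 64 bp from a reproducible Pol II S5P region and within 200 bp of a tRNA gene, and the strand of KNL1 was not known. MED13L, a gene of the Mediator kinase module, had FGFR1 at 10.0 and 19.8, then 9.10 and 9.40 after siNT, and no FOXA1 peak. UNC5A, a netrin receptor gene, had 8.42 and 12.4, then 6.28 and 5.95. UBE2E2 (a ubiquitin-conjugating enzyme), PCBP2 (a poly(C)-binding protein) and TCF3 (a basic helix-loop-helix factor) followed, with siNT folds between 4.70 and 6.28. Apart from MED13L, the siNT folds of these 6 lay below every siNT fold of the 12 leading members, the lowest of which was 8.15. The PCBP2 region lay 124 bp from a reproducible Pol II S5P region.

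Each gene group is given as members among its genes with FGFR1 at an end, beside the 9.09% over all such genes. Of 22 histone methylation genes, 3 (13.6%) were members, KMT2A and the demethylase genes KDM6A and KDM4A. KDM6A had FGFR1 folds of 5.91 and 7.55 with FOXA1 at 17.3 and 17.2, and KDM4A had 5.23 and 7.77 with no FOXA1. Neither had a peak in a transfected list. Of 25 acetylation and remodelling genes, 2 were members, the acetyltransferase gene CREBBP (folds of 4.55 and 5.33) and the deacetylase gene HDAC5 (4.78 and 9.77). Of 17 genes of PI3K, AKT and mTOR signalling, 3 (17.6%) were members. PIK3CD, a catalytic subunit gene, had FGFR1 in all 6 lists, at 7.73 and 13.1 untransfected, 18.2 and 17.9 with siNT and 11.6 and 9.38 with siFOXA1, and weak H3K27ac at 4.31 and 4.36. PIK3CA, another catalytic subunit gene, had 9.33 and 8.88, then 5.65 and 4.70, then 6.43 in the first siFOXA1 list alone, beside FOXA1 at 11.5 and 22.9. The adaptor gene IRS2 had 5.69 and 8.44 and no peak in a transfected list.

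Of 18 genes of receptor, RAS and ERK signalling, 2 were members. They were the receptor gene FGFR3, with FGFR1 folds of 5.23 and 6.22, and SPRED1, an inhibitor of the pathway, with 4.55 and 6.88. RAPGEF1 was the member among 8 exchange factor genes, E2F4 among 12 cell cycle genes, H4C8 among 27 replication histone genes and SIX2 among 15 developmental factors. A gene counts through either of its ends. The E2F4 region was shared with ELMO3, lay near both a gene start and a far end, and was 270 bp from reproducible Pol II S5P. Zinc finger genes with a ZNF symbol gave 8 of 101, led by ZNF384, ZBTB genes 1 of 18 (ZBTB20), and solute carriers 5 of 70, led by SLC22A23. No member was found among 51 cytosolic ribosomal protein genes (Wilson upper limit 7.005%), 26 mitochondrial ones (12.9%), 18 immediate early genes (17.6%), 17 SR and hnRNP genes (18.4%) and 14 luminal and oestrogen response genes (21.5%). The background share of 9.09% lies within the interval of each of these lists except that of the cytosolic ribosome. The shares of the lists were not tested.

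A tRNA gene lay within 200 bp of 11 members (3.42%, Wilson 95% interval 1.92% to 6.01%), against 17 regions with Pol II S5P (0.545%, 0.341% to 0.871%) and 0.814% over all. tRNA genes are transcribed by RNA polymerase III. This count was chosen after the values were seen and was not tested. The 11 were at KNL1, POLR3E (a subunit gene of RNA polymerase III), H4C8, PGBD2, HMGN4, FCGR2A with HSPA6, PSMB3, SHF, DPP9, MYNN and PLXDC1. All 11 carried H3K4me3 and H3K27ac, 9 carried FOXA1, 3 were in both siNT lists and 0 in all 4 transfected lists. Over all gene-end regions the shares were 99.7% for each mark, 42.7% for FOXA1, 23.0% for both siNT lists and 9.10% for all 4. The counts among 11 regions are too few to compare with these shares. At POLR3E FGFR1 had folds of 9.10 and 21.8, and at PGBD2, which lay by the tRNA genes TRE-CTC2-1 and TRL-CAA4-1, 6.37 and 18.4. Over the whole series, 104 of 443 tRNA genes had reproducible FGFR1 within 200 bp, and 75 of the 104 had no Pol II S5P there. Pol II S5P was rare at tRNA genes in general, with a reproducible region within 200 bp of 33 of the 443.

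Members were found on all chromosomes from 1 to 22 and on X. Chromosome 19 held the most, 38 among its 281 gene-end regions (13.5%), and chromosome 1 held 32 among 452 (7.08%), against 9.36% over all. Other chromosomes had higher shares than chromosome 19, among them chromosome 10 (14 of 70, 20%) and chromosome 14 (13 of 70, 18.6%). These shares were not tested. The X chromosome had 5 members of 11 gene-end regions, at GNL3L, KDM6A, TAF1, SYP and a start shared by BRCC3, CMC4 and MTCP1. In 34 windows of 1 Mb, peaks of the transfected lists were over 10 times as many as in the average window. These windows contained 16 members (4.97%) and 257 regions with Pol II S5P (8.24%). Without them the odds ratios were 1.84 for siNT and 2.98 for siFOXA1 presence.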

How the data were processed

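Peak lists of 14 libraries were analysed as deposited, for untransfected FGFR1, H3K4me3, H3K27ac, Pol II S5P and FOXA1 and for FGFR1 after siNT or siFOXA1. The submitters' processing notes name hg38, Bowtie2, SAMtools, Picard and MACS2; their versions and settings are not given in the sources used here. The authors deposited 1 list per library, and replicates were not pooled. For each peak the authors give the fold over background (a linear ratio), and -log10 values of p and q; only the fold and the -log10 q-value were used. Folds rank peaks within a list, and across lists they are only set side by side. In the untransfected FGFR1 lists the peak names carry other replicate numbers than the labels, and FOXA1 peaks are named FOXA2; the labels were followed.

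Gene ends came from a RefSeq table of 19974 protein-coding genes (GRCh38.p14), and strand, known for 15812, from its promoter table; exons were not used. A region is named by every protein-coding gene with an end within 1 kb. Regions without and with Pol II S5P were compared with two-sided Fisher's exact tests, Woolf intervals and Benjamini-Hochberg adjustment over 7 features, and percentiles by 100000 permutations. Wilson intervals cover counting error only. The number of peaks and the background per position limit what a list can hold, and total read counts were not used. Named members are the first 12 by mean within-list FGFR1 percentile, the leading ones in all 4 transfected lists, lost, without H3K4me3, without any other target and not at a start, up to 6 of each gene list with at least 2, and those nearest the limits; POLR3E, PGBD2 and the other tRNA neighbours, the X-linked members and the rest of those without H3K4me3 or H3K27ac were chosen after their values were seen. The members, gene lists and tests were chosen with earlier results of these data known. Interval functions, odds ratios and permutations were tested on simulated data (Python 3.11.15, SciPy 1.17.1, pandas 2.3.3). Alternatives were a stricter threshold, reciprocal overlap of 50%, windows of 500 bp and 3 kb, other definitions of Pol II S5P absence, each library left out, strata of strength and width, lists of equal length and removal of crowded windows. The FGFR1 summit (200 bp), removal of tRNA neighbours and the alternatives for percentiles were added after seeing the data.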

Additional observations from a re-analysis of the deposited data

How the results depend on the processing

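The number of members was 140 when no peak of either Pol II S5P list was allowed, and ranged from 145 (without Pol II S5P replicate 2) to 1684 (without FGFR1 replicate 1) when each library of the rule was left out. The odds ratio for presence in both siNT lists was 1.32 with a window of 500 bp and ranged from 0.662 to 2.0003 with a library left out, the lowest without FGFR1 replicate 1. For both siFOXA1 lists it ranged from 0.803 to 2.67, again lowest without FGFR1 replicate 1. For loss after siFOXA1 it was 0.398 with a -log10 q of at least 5, and ranged from 0.534 to 1.14 with a library left out. The siNT minus siFOXA1 difference in shares of members was 11.6 points with lists of equal length and ranged from 6.53 to 17.4 points with a library left out. The causes were not tested. The deviations of same-numbered siNT and siFOXA1 lists correlated at r = 0.0536 over the 313 regions in all 4 transfected lists. That value cannot decide whether replicate numbers pair the libraries, because a shift shared by a whole list drops out of it. With the replicate number as a block, loss meant a peak in an siNT list and none in the siFOXA1 list of the same number. The Mantel-Haenszel odds ratio was then 0.565 (95% interval 0.434 to 0.736). The blocks held 119 and 133 members, and the 95 members in both siNT lists entered both blocks. Regions with Pol II S5P were repeated in the same way. The interval treats these repeats as independent and may be too narrow, so it cannot decide whether this setting passed. Within the replicate numbers, the odds ratio was 0.600 (p = 0.0111, Fisher's exact test) and 0.534 (p = 0.000757, Fisher's exact test). With this block the difference in shares was 15.2 points, 11.2 and 19.3 within the replicate numbers.

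FOXA1 (19 alternatives, 0.385 to 0.648), H3K4me3 (18, 0.00247 to 0.121), H3K27ac (17, 0.00210 to 0.146) and gene start (16, 0.148 to 0.399) kept their direction and passed in every alternative run, as did the H3K4me3 and H3K27ac percentiles in 3 each. H3K27ac within quintiles could not be fitted, because no region with Pol II S5P lacked it. Short lists limit presence in transfected cells, since a missing peak may be a weak one.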
